A study of Oryza sativa Japonica Group with 9 samples.

Results

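The 9 genes described here belong to a cluster of diterpenoid genes on chromosome 2 of rice (Oryza sativa, Japonica). They were taken by name from the 55986 genes of the deposited RNA tables: the tables describe LOC_Os02g36140, LOC_Os02g36210, LOC_Os02g36220 and LOC_Os02g36264 as terpenoid cyclases, and LOC_Os02g36070, LOC_Os02g36110, LOC_Os02g36150, LOC_Os02g36190 and LOC_Os02g36280 as cytochromes P450. All 9 were in the tables, and all 9 had enough reads to be tested. LOC_Os02g36110, LOC_Os02g36140, LOC_Os02g36210, LOC_Os02g36220 and LOC_Os02g36264 had 0 to 8 reads in each drought library. These genes passed the filter on low counts through their normal libraries alone. The 9 genes were chosen by their place in the cluster and selected on their drought and genotype levels in these same libraries. Their values under drought and between genotypes are therefore a description. No p-value of a member is given, and counts of members past a threshold stand beside the share of all genes, as a description and not as a test of the cluster. The study sequenced RNA from above-ground parts of seedlings with 4 leaves, of ZH11 (Zhonghua 11, the wild type), of an osbzip23 mutant and of a line that overexpresses OsbZIP23. The gene encodes a bZIP factor of the abscisic acid response. Each genotype was sampled once under normal growth (no stress) and once under drought, with stressed plants harvested when all leaves had rolled. The 6 groups are therefore 1 library each. The allele of the mutant, the promoter of the overexpressor and the number of plants per library are not given in the sources used here.

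Rice makes labdane-type diterpenoids, many of them antimicrobial phytoalexins, from geranylgeranyl diphosphate in 3 kinds of step. A class II cyclase folds that precursor into copalyl diphosphate, a class I cyclase of the kaurene synthase-like (KSL) family turns this into a hydrocarbon skeleton, and cytochromes P450 oxidise the skeleton. The cluster on chromosome 2 is known for phytocassanes, and a cluster on chromosome 4 is known for momilactones. Gibberellin, the growth hormone, starts from the same ent-copalyl diphosphate but uses its own copies of these enzymes. In the names used in the rice literature, LOC_Os02g36210 is OsCPS2, the class II cyclase that makes ent-copalyl diphosphate, and LOC_Os02g36140 is OsKSL7, the class I cyclase that makes ent-cassadiene, the skeleton of phytocassanes. LOC_Os02g36070 is CYP76M8 and LOC_Os02g36110 is CYP76M7, which hydroxylate ent-cassadiene and, for CYP76M8, related skeletons. LOC_Os02g36150 is CYP71Z6 and LOC_Os02g36190 is CYP71Z7, hydroxylases of ent-isokaurene and of ent-cassadiene. LOC_Os02g36280 is CYP76M6, a P450 of the same family as CYP76M7. LOC_Os02g36220 and LOC_Os02g36264 are the pair that carries the names OsKSL5 and OsKSL6, class I cyclases that make other skeletons; which locus carries which name was not settled here, so both are given by locus. The tables give families and not these names. RefSeq (assembly ASM3414082v1) lists all 9 names, 8 of them on chromosome 2 and CYP76M7 on chromosome 6.

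Total reads ran from 9484891.5 to 13521021.5 per library. Levels are given as CPM, reads scaled to library size with TMM factors. Under normal growth OsbZIP23 (LOC_Os02g52780) had 32.3 CPM in ZH11, 11.8 in the mutant library and 1319 in the overexpressor library. Under drought it had 478, 158 and 455 CPM in the same order. The drought library labelled overexpressor was thus at 0.952 of the ZH11 level with TMM factors (95% interval 0.916 to 0.990). By total reads its share was instead above that of ZH11, with 4625.5 of 10040460 reads against 5606 of 13521021.5. The direction of this difference depends on the scaling. The drought library does not show a rise in OsbZIP23 like that under normal growth. The labelled tissue was checked with marker genes. LOC_Os12g17600 (RbcS), a small subunit of Rubisco in green tissue, had at least 7712 CPM in each normal library. In the drought libraries it had 34.3, 83.0 and 206 CPM in ZH11, mutant and overexpressor. As a check of green tissue it thus covers the normal libraries only. The root silicon channel Lsi1 had 3.63 to 9.90 CPM over all libraries, and the root silicon transporter Lsi2 had 0 reads in each. In whole shoots, fewer cells of a type and less RNA per cell cannot be told apart.

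Under normal growth the 9 genes summed to 89.2 CPM in ZH11, 731 CPM in the mutant library and 49.35 CPM in the overexpressor library. Under drought the sums were 26.5, 67.2 and 11.0 CPM in that order. The mutant library was the highest of the 3 in each condition and the overexpressor library the lowest. The make-up of the sum also differed between conditions. OsCPS2 held 35.3% of it in ZH11 under normal growth and 0.322% under drought, while CYP71Z6 held 20.3% and 72.0%.

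**Figure D1:**
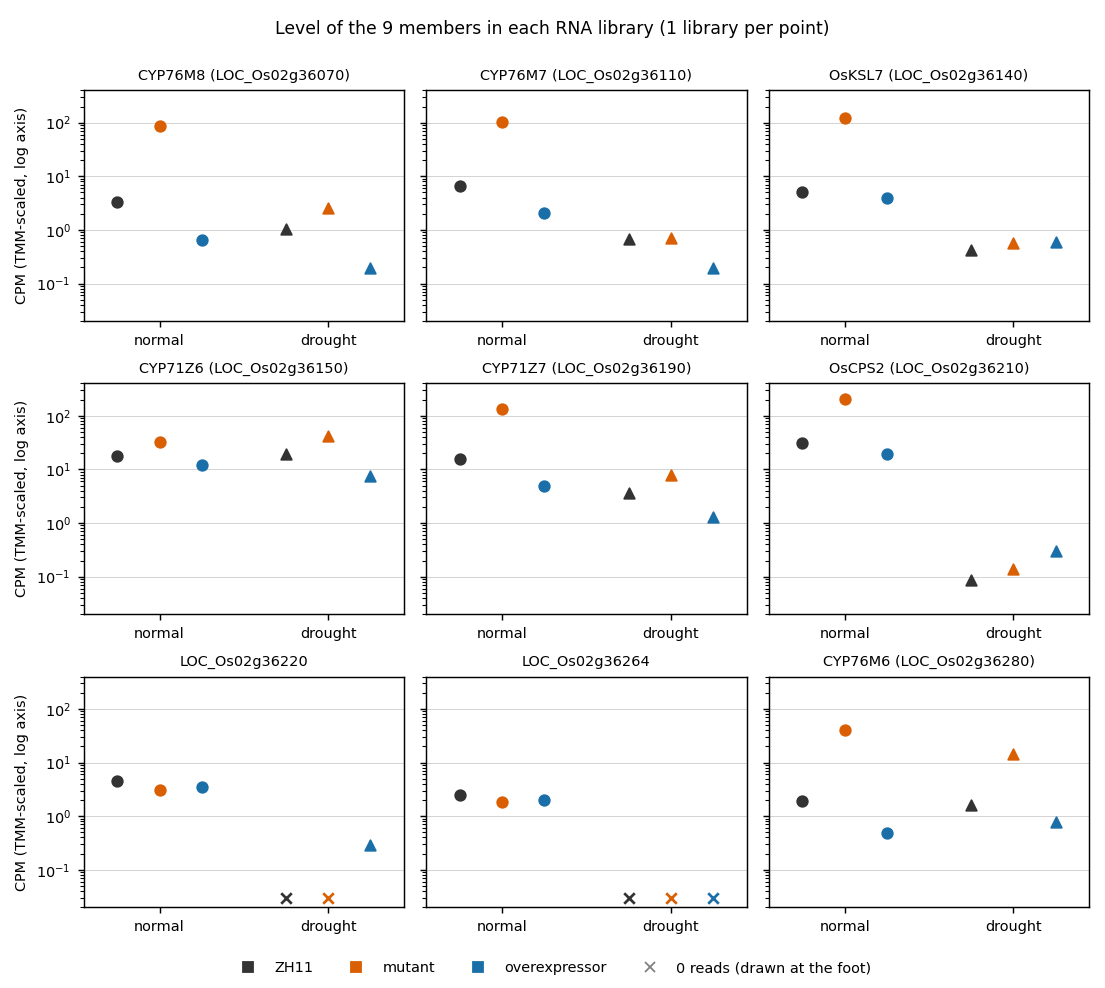
Level of each of the 9 genes in each of the 6 RNA libraries, as TMM-scaled CPM on a log axis, with circles for normal growth, triangles for drought and crosses at the foot for 0 reads. The mutant library under normal growth stands highest for OsCPS2 (202 CPM), OsKSL7, CYP76M7, CYP76M8, CYP71Z7 and CYP76M6, but not for LOC_Os02g36220 or LOC_Os02g36264, and CYP71Z6 is at 18.1 CPM in ZH11 under normal growth and 19.1 CPM under drought.

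OsCPS2, the first enzyme of the cluster's pathway, had 31.5, 202 and 19.6 CPM under normal growth in ZH11, mutant and overexpressor. Under drought it had 0.0853, 0.140 and 0.295 CPM in the same order, which were 1, 1 and 3 reads. Each normal library was far above each drought library. OsKSL7, which uses the product of OsCPS2, had 5.12, 125 and 3.96 CPM in ZH11, mutant and overexpressor under normal growth and 0.426, 0.559 and 0.590 CPM under drought. Its 3 drought libraries were close to each other, at 4 to 6 reads, while the mutant stood apart under normal growth.

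LOC_Os02g36220 had 4.46, 3.05 and 3.47 CPM in ZH11, mutant and overexpressor under normal growth, and 0, 0 and 0.295 CPM under drought. LOC_Os02g36264 had 2.49, 1.83 and 1.98 CPM under normal growth and 0 reads in all 3 drought libraries. These class I cyclases thus separated normal from drought, as OsKSL7 did, but their normal libraries lay close together, with the mutant the lowest of the 3 for each gene. Per gene length, in the authors' FPKM (fragments scaled to gene length and library size), OsKSL7 was at 1.11 times the level of LOC_Os02g36220 in ZH11 under normal growth, 1.06 times in the overexpressor and 37.8 times in the mutant.

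CYP76M8 had 3.29, 88.4 and 0.660 CPM in ZH11, mutant and overexpressor under normal growth, and 1.02, 2.52 and 0.197 CPM under drought. CYP76M7 had 6.66, 104 and 2.06 CPM under normal growth and 0.682, 0.699 and 0.197 CPM under drought. For both hydroxylases the mutant was high and the overexpressor low under normal growth; for CYP76M8 the ranges of the normal and drought libraries overlapped, because the overexpressor had 8 reads under normal growth and the mutant had 18 under drought. CYP71Z7 had 15.7, 135 and 4.95 CPM under normal growth and 3.58, 7.83 and 1.28 CPM under drought. It had the mutant highest and the overexpressor lowest in each condition, and here too the overexpressor under normal growth lay below the mutant under drought.

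CYP71Z6, next to CYP71Z7 by locus number among the members, had 18.1, 31.9 and 12.1 CPM in ZH11, mutant and overexpressor under normal growth and 19.1, 41.2 and 7.38 CPM under drought. The order of the genotypes was the same in both conditions, and the normal and drought libraries overlapped. Its drought ratio in the mutant was 1.29 with TMM factors and 0.809 by total reads, so its direction there depends on the scaling. CYP76M6 had 1.90, 40.0 and 0.495 CPM under normal growth and 1.62, 14.3 and 0.787 CPM under drought. It had its highest drought level in the mutant, while ZH11 and the overexpressor had 6 to 26 reads in each condition. CYP76M6, CYP76M7 and CYP76M8, then CYP71Z6 and CYP71Z7, and the pair LOC_Os02g36220 and LOC_Os02g36264 are related genes. The authors' counting could have split reads between them. Read numbers ending in 0.5 occurred in 0 to 3 of the 6 libraries for a member.

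Per gene length, the highest member in the mutant under normal growth was CYP71Z7 at 84.2 FPKM, followed by OsCPS2 at 78.7 FPKM, CYP76M7 at 71.2 FPKM, CYP76M8 at 57.8 FPKM and OsKSL7 at 48.0 FPKM. In ZH11 under normal growth OsCPS2 at 11.3 FPKM and CYP71Z6 at 11.2 FPKM were close together at the top, and LOC_Os02g36264 was lowest at 0.926 FPKM. In each drought library CYP71Z6 was the highest, at 9.24, 17.3 and 4.16 FPKM in ZH11, mutant and overexpressor. Neighbours in these orders have 1 library each, so no spread between samples could be set against their distance.

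The drought comparison asks how the transcripts changed as leaves rolled. In an additive fit of genotype and stress over the 6 libraries (edgeR's quasi-likelihood test with Benjamini-Hochberg adjustment over 21409 genes), 7 of the 9 genes were lower under drought at an adjusted p under 0.05 and 0 were higher. Of all tested genes 27.5% were lower by that rule and 26.1% higher; since the members were known to be low under drought, nothing is read from the difference. Scaled by total reads, 18.8% of genes were higher and 34.2% lower, the median over all genes was -0.55, and the count of members was again 7. OsCPS2 had a log2 fold change of -8.31 (SE 0.68), and 36 of the 21409 genes had a lower value. LOC_Os02g36220 had -5.10 (SE 0.88), CYP76M7 -5.02 (SE 0.86), OsKSL7 -4.99 (SE 0.99), CYP76M8 -3.40 (SE 0.83) and CYP71Z7 -2.82 (SE 0.50). The seventh was LOC_Os02g36264, at least 20.3-fold lower when the 3 drought libraries together were set at a floor of 3 reads. The 2 P450 genes outside the call were CYP76M6 at -0.64 (SE 0.46) and CYP71Z6 at -0.07 (SE 0.28), which was -0.48 with scaling by total reads. The median over the 9 was -4.99, or -4.34 with LOC_Os02g36264 at its bound, beside -0.15 over all tested genes. Without the mutant library under normal growth 6 genes were called, with CYP76M8 at -1.69 no longer past the threshold. Photosynthesis transcripts moved with drought: all 4 listed markers (2 RbcS and 2 Lhcb genes) fell, with a median of -5.46, and LOC_Os12g17600 (RbcS) had 34.3, 83.0 and 206 CPM in the drought libraries of ZH11, mutant and overexpressor. The part of this wider change in the members' values was not tested.

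Within each genotype the drought ratio rests on 1 library against 1 and was not tested. Ratios carry exact (Clopper-Pearson) 95% intervals of their reads, which cover counting error only. At least 2-fold lower under drought, on CPM plus 0.5, were 7 of 9 genes in ZH11 (29.5% of all genes that had 10 reads or more in one of the libraries), 8 of 9 in the mutant (32.7%) and 6 of the 7 with enough reads in the overexpressor (20.6%). At least 2-fold higher were 0 in each genotype, beside 25.0%, 26.5% and 20.1% of all genes. OsCPS2 was 369-fold lower in ZH11 (interval 65.8 to 14600), 1446-fold lower in the mutant (259 to 57140) and 66.5-fold lower in the overexpressor (22.5 to 325). OsKSL7 was 12.0-fold lower in ZH11 (4.91 to 38.1), 223-fold lower in the mutant (86.9 to 819) and 6.71-fold lower in the overexpressor (2.87 to 19.2). For OsKSL7 and CYP71Z7 the mutant interval did not meet the others, and the normal level of each was highest in the mutant. CYP76M6 was 2.8-fold lower in the mutant (2.27 to 3.50) and 1.17-fold lower in ZH11 (0.625 to 2.24). These CYP76M6 intervals did not meet with TMM factors but met with RLE factors. In the overexpressor CYP76M6 had only 8 drought and 6 normal reads. LOC_Os02g36220 was at least 17.4-fold lower in ZH11 and at least 7.28-fold lower in the mutant, against a floor of 3 reads per library, and 11.7-fold lower in the overexpressor (3.75 to 59.2). CYP71Z7 was 4.39-fold lower in ZH11 (3.14 to 6.27), 17.2-fold in the mutant (13.2 to 22.9) and 3.87-fold in the overexpressor (2.10 to 7.68).

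**Figure D2:**
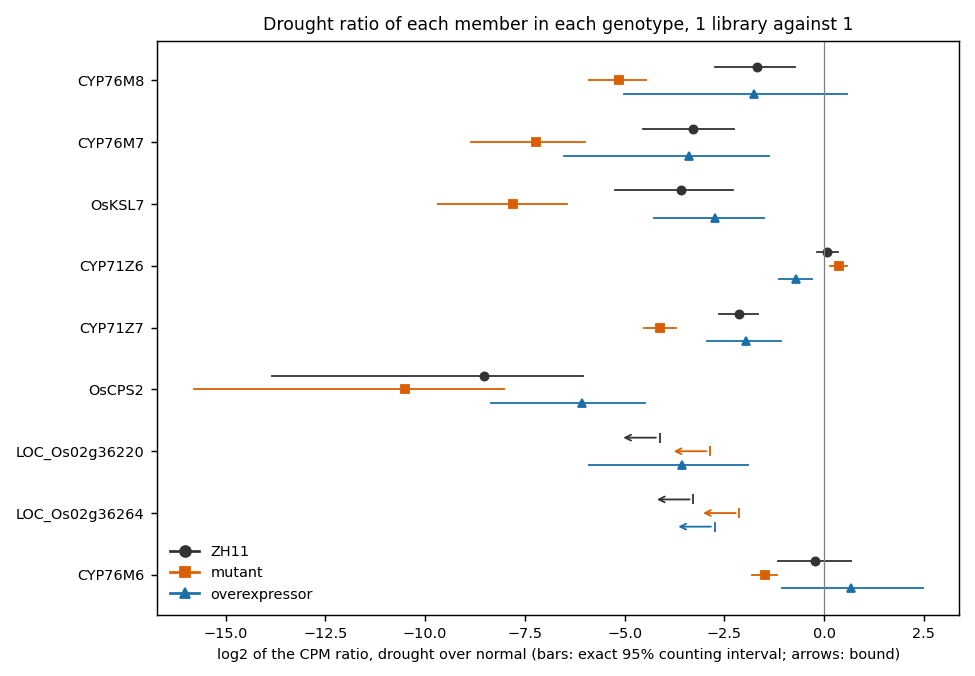
Log2 of the drought over normal CPM ratio of each gene in ZH11, mutant and overexpressor, with exact 95% counting intervals as bars and arrows from the bound where the drought library had 0 reads. OsCPS2 lies farthest to the left in each genotype, and CYP71Z6 has a ratio of 1.06 in ZH11 (0.822 when scaled by total reads). By its point ratio the mutant is the lowest of the 3 for OsCPS2, CYP76M8, CYP76M7, OsKSL7, CYP71Z7 and CYP76M6, though some of these intervals meet.

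The mutant comparison asks what a lesion in OsbZIP23 does to these transcripts. Under normal growth 6 of the 9 genes were at least 2-fold higher in the mutant library than in ZH11 and 0 were at least 2-fold lower, beside 3.42% and 4.03% of 22151 genes. CYP76M8 was 26.9-fold higher (interval 19.9 to 37.0), OsKSL7 24.3-fold (19.2 to 31.4), CYP76M6 21.0-fold (14.2 to 32.5), CYP76M7 15.6-fold (12.7 to 19.6), CYP71Z7 8.56-fold (7.43 to 9.90) and OsCPS2 6.43-fold (5.81 to 7.13). Only 14 of those 22151 genes had a higher ratio than CYP76M8, and 112 had a higher ratio than OsCPS2. CYP71Z6 was at 1.76 times its ZH11 level (1.51 to 2.07). LOC_Os02g36220 was at 0.684 (0.455 to 1.02) and LOC_Os02g36264 at 0.736 (0.427 to 1.26), with intervals that include equal levels. The median log2 ratio over the 9 was 3.06, beside 0.01 over all genes. All 5 listed defence markers outside diterpenoids were also at least 2-fold higher in that library, with values given further on, and their part in the members' ratios was not tested.

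Under drought fewer members could be compared. Of the 4 genes with enough reads, 3 were at least 2-fold higher in the mutant, beside 5.97% of 20366 genes, and 0 were at least 2-fold lower, beside 6.07%. The count of 3 was 4 with RLE factors and 1 when scaled by total reads, with CYP76M6 the highest ratio under each. CYP76M6 was 8.80-fold higher (interval 5.36 to 15.2), CYP71Z7 2.19-fold (1.44 to 3.34) and CYP71Z6 2.16-fold (1.81 to 2.58). CYP76M8, at 18 reads against 12, was at 2.46 times its ZH11 level (1.12 to 5.60), a log2 ratio of 0.99 once 0.5 CPM was added. OsCPS2, OsKSL7 and CYP76M7 had at most 8 reads in either library, so no difference was detectable at this depth.

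In the additive fit, which takes 1 mutant effect over both conditions and leaves any dependence on drought in its error, edgeR called 0 of the 9 genes (0.014% of tested genes were called higher and 0.0% lower). At an unadjusted p under 0.05 there were 7 of 9, beside 3.64% of all tested genes, and DESeq2 called 4 of 9, beside 0.4% of genes with an adjusted p. The fitted mutant log2 fold changes were 3.84 (SE 0.54) for CYP76M6, 3.70 (SE 1.10) for OsKSL7, 3.50 (SE 0.89) for CYP76M8 and 2.46 (SE 0.67) for OsCPS2. The count depended on the libraries used: edgeR called 6 of 9 without the overexpressor drought library, 5 without the mutant drought library and 2 without the overexpressor normal library. Without the mutant normal library 0 were called and the fitted mutant value of OsCPS2 was -0.57. OsKSL7 was then at 0.08 and CYP76M7 at 0.04, so the fitted mutant values of these 3 genes rest on 1 library.

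The overexpressor comparison asks the reverse, with OsbZIP23 at 40.8 times its ZH11 level under normal growth. It uses the same ZH11 libraries as the mutant comparison, so the directions of these comparisons are not independent. Under normal growth 4 of the 9 genes were at least 2-fold lower in the overexpressor library, beside 3.86% of 21934 genes, and 0 were at least 2-fold higher, beside 2.36%. CYP76M8 was 4.99-fold lower (interval 2.33 to 12.2), CYP76M6 3.84-fold (1.55 to 11.4), CYP76M7 3.23-fold (2.05 to 5.25) and CYP71Z7 3.18-fold (2.38 to 4.30). The fifth P450 gene, CYP71Z6, was 1.49-fold lower (1.21 to 1.84). Among the cyclases OsCPS2 was 1.60-fold lower (1.36 to 1.89), while OsKSL7, LOC_Os02g36220 and LOC_Os02g36264 had ratios of 0.773, 0.777 and 0.796 with intervals that include 1. Under drought the OsbZIP23 level was close to that of ZH11. There 3 of the 4 genes with enough reads were at least 2-fold lower, beside 8.52% of 21404 genes, and 0 were at least 2-fold higher, beside 11.0%. Scaled by total reads, 2 of the 4 were. CYP71Z6, with the most reads of them, was 2.59-fold lower (1.98 to 3.41). In the additive fit edgeR called 0 of the 9 genes in the overexpressor (2 at an unadjusted p under 0.05, beside 5.16% of all tested genes), DESeq2 also called 0, and 0.0187% of all tested genes were called higher and 0.0% lower.

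**Figure D3:**
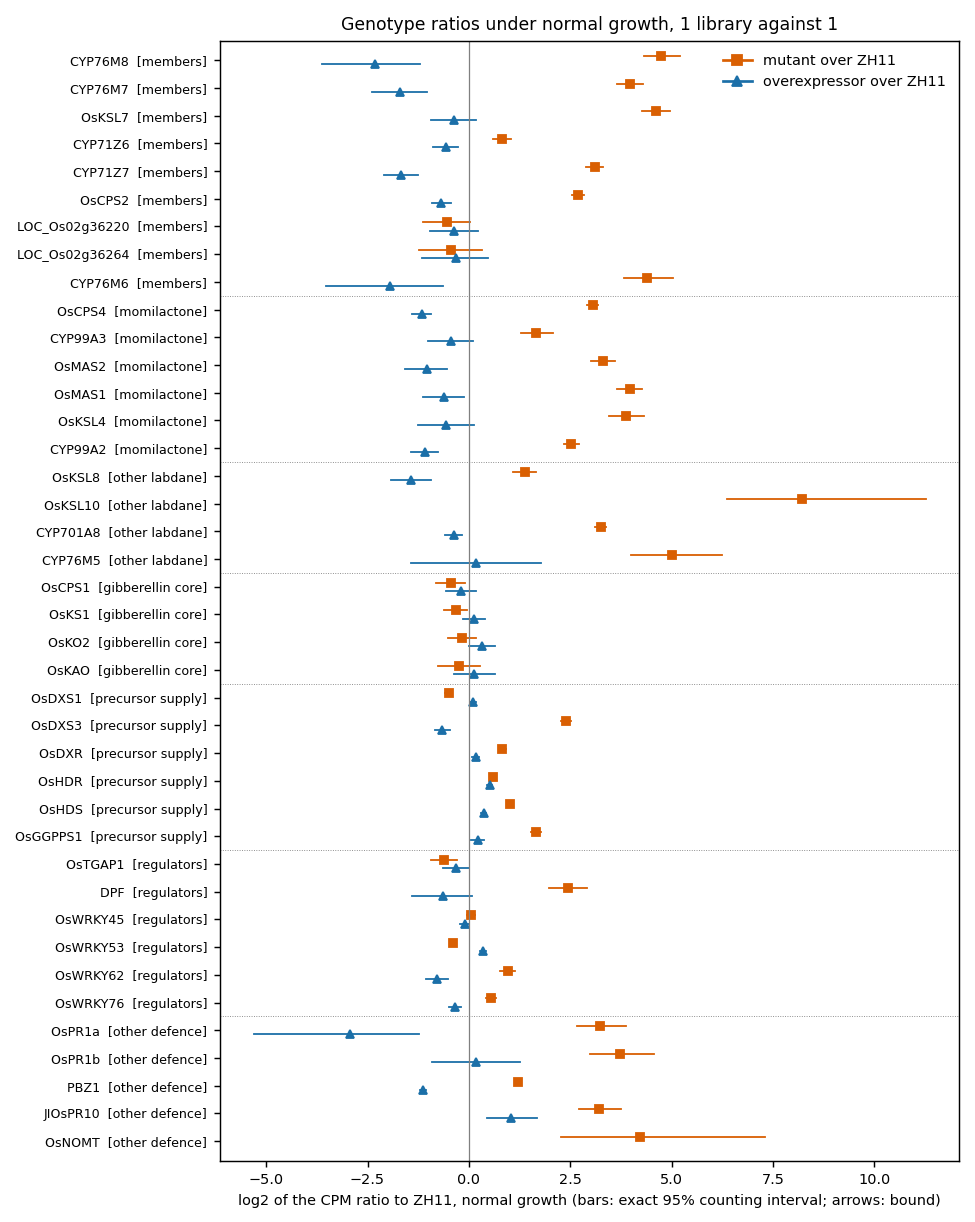
Log2 of the CPM ratio to ZH11 under normal growth for the 9 genes and for the genes of related lists, with squares for the mutant, triangles for the overexpressor and exact 95% counting intervals as bars. The mutant lies far to the right for 6 of the 9 members, for the momilactone genes and for OsKSL10, CYP76M5 and CYP701A8. The 5 defence genes outside diterpenoids also lie to the right in the mutant, from 2.3-fold for PBZ1 to 18.5-fold for OsNOMT. The 4 gibberellin genes lie near 0 in both genotypes.

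Other genes of the pathway were taken from lists made up of textbook members, and were chosen with earlier results of these data known. For the list counts from here on, the shares of all tested genes under drought were 27.5% lower and 26.1% higher. In the mutant under normal growth 3.42% of all genes with enough reads were at least 2-fold higher than in ZH11. The 6 momilactone genes of chromosome 4 were all at least 2-fold higher in the mutant under normal growth, with a median log2 ratio of 3.13. OsCPS4, the class II cyclase of that cluster, had 38.5, 319 and 17.3 CPM under normal growth in ZH11, mutant and overexpressor and at most 0.280 CPM under drought. All 6 fell under drought, with a median log2 fold change of -6.63. Each had 0 to 6 reads in each drought library, so the size of these falls rests on few reads. All 4 other labdane genes listed were also at least 2-fold higher in the mutant library. Of these 4, CYP76M5 lies next to the members by locus number and is the same gene that is described below among the neighbouring loci. OsKSL10, a class I cyclase of oryzalexin synthesis on another chromosome, had 2 reads in ZH11 and 641.5 in the mutant under normal growth, a ratio of 297 (interval 82.0 to 2462). The stemarene synthase OsKSL8 was 2.60-fold higher in the mutant (2.14 to 3.16), and CYP701A8, a P450 related to kaurene oxidase, 9.50-fold higher (8.64 to 10.5). In the fit, OsKSL8 fell under drought, by 5.51 on the log2 scale, with 2 or 3 reads in each drought library. CYP701A8 did not pass at -1.30 (SE 0.69). OsKSL10, with nearly all its reads in 1 library, did not pass the filter on low counts.

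Gibberellin genes that share the chemistry of OsCPS2 and the KSL enzymes were within 2-fold of ZH11 in the mutant. OsCPS1, which makes ent-copalyl diphosphate for gibberellin, had 10.7, 7.80 and 9.32 CPM in ZH11, mutant and overexpressor under normal growth. Over the 4 gibberellin genes, 0 of them 2-fold apart, the mutant had a median log2 ratio of -0.27. Under drought 3 of the 4 fell, OsCPS1 by 2.47 (SE 0.36), the kaurene oxidase OsKO2 by 1.69 (SE 0.35) and the kaurene synthase OsKS1 by 1.05 (SE 0.30), while OsKAO had -0.78 (SE 0.33). With either ZH11 library left out, OsCPS1 was called and the other 3 were not. Of 6 genes that supply the precursor, 3 fell under drought: OsDXS3 had a log2 fold change of -5.57, OsDXS1 one of -2.49 and OsDXR one of -1.20 (SE 0.26), the last not past the threshold with either ZH11 library left out. OsDXS3, an enzyme of the first step of plastid isoprenoid synthesis, had 49.0, 256 and 31.2 CPM under normal growth in that order of genotypes. Its paralogue OsDXS1 had 176, 125 and 189 CPM, the mutant being lowest. Geranylgeranyl diphosphate synthase OsGGPPS1 was 3.14-fold higher in the mutant (interval 2.88 to 3.44).

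Of 6 listed regulators of phytoalexin or defence genes, 4 fell under drought and 0 rose. DPF, a bHLH activator of diterpenoid phytoalexin genes, fell by 5.26 (SE 0.68), with 1 or 2 reads in each drought library. It was 5.40-fold higher in the mutant than in ZH11 under normal growth (interval 3.94 to 7.55). DPF was the one regulator at least 2-fold apart there. The WRKY factors OsWRKY45, OsWRKY62 and OsWRKY76 fell by 3.85, 2.44 and 2.30. OsTGAP1, a bZIP activator of these genes, had 14.3, 9.29 and 11.4 CPM in ZH11, mutant and overexpressor under normal growth and 14.8, 40.3 and 10.8 CPM under drought, and did not pass (0.68, SE 0.48). OsWRKY53 did not pass either, at 1.03 (SE 0.48). Markers of defence outside diterpenoids moved with the mutant library under normal growth. All 5 of that list were at least 2-fold higher there than in ZH11, with a median log2 ratio of 2.94. The pathogenesis-related genes OsPR1b and OsPR1a were 13.2-fold (7.96 to 23.5) and 9.45-fold (6.30 to 14.7) higher. PBZ1, of the PR10 family, had 395 CPM in ZH11 and 920 CPM in the mutant, and OsNOMT, of sakuranetin synthesis, had 2 and 40.5 reads. The part of this wider difference in the cluster's level was not tested. Under drought, of the 4 defence genes tested, PBZ1 fell by 3.15 (SE 0.31). OsPR1b had a log2 fold change of -5.74 (SE 0.75), which passed the test, with 0 or 1 reads in each drought library. JIOsPR10, of the PR10 family, rose by 4.90 (SE 0.73) and OsPR1a had -0.38 (SE 0.75).

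Among the locus numbers from LOC_Os02g35900 to LOC_Os02g36450 the tables hold 44 other loci, and 13 of them were tested. Between the outermost members lie 11 other loci; 0 of them were tested, and the most reads that any had in 1 library was 8. Outside, 9 of the 13 tested loci changed with drought, 5 down and 4 up, beside the 27.5% and 26.1% of all tested genes given above. The largest changes, named after their values were seen, were those of LOC_Os02g35940, an alpha/beta-hydrolase superfamily gene that rose by 5.06 (SE 0.36), and LOC_Os02g36000, with no description in the tables, which fell by 4.13 (SE 0.61). A thioredoxin superfamily gene, LOC_Os02g35900, fell by 2.54 (SE 0.27) and a nucleotide-sugar transporter gene, LOC_Os02g36390, by 1.26 (SE 0.26). LOC_Os02g36360, of a C2H2 zinc finger family, rose by 1.79 (SE 0.23), LOC_Os02g36340, a GTP cyclohydrolase II, by 1.66 (SE 0.49) and LOC_Os02g36330, of a RING/U-box family, by 1.26 (SE 0.26). Without the ZH11 normal or the ZH11 drought library 2 loci were called each way, and without the overexpressor drought library 8 were called lower. None of the 7 loci named so far was 2-fold apart between mutant and ZH11 under normal growth, their log2 ratios lying from -0.74 to 0.15. Other loci with fewer reads were more than 2-fold apart there, named after their values were seen. LOC_Os02g36414, of the major facilitator superfamily, had 7 reads in ZH11 and 29 in the mutant, a log2 ratio of 1.285. LOC_Os02g35970, of an NPH3 family, had 29 and 6 reads, a log2 ratio of -1.53. Next to the members, CYP76M5 (LOC_Os02g36030), a P450 of the same family, had 8, 277 and 8 reads under normal growth in ZH11, mutant and overexpressor. It was 32.1-fold higher in the mutant than in ZH11 (interval 16.1 to 75.1), and its reads too could have been split with those of the CYP76M members. LOC_Os02g36285, a terpenoid cyclase named here after its values were seen, had 1, 23.5 and 0 reads in the same libraries and 0 in each drought library.

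**Figure D4:**
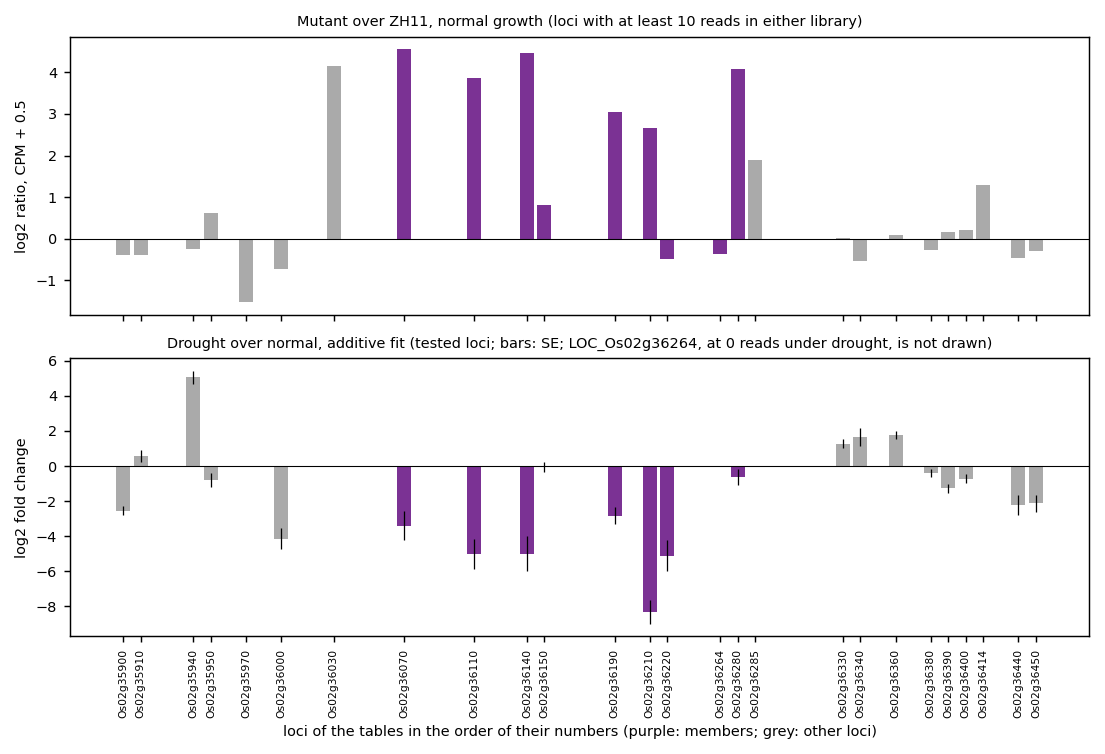
Loci of the tables in the order of their numbers, with members in purple and others in grey. The upper bars are log2 ratios of mutant over ZH11 under normal growth (CPM plus 0.5), highest for CYP76M8 at 4.55 and high also for CYP76M5, and the lower bars are drought log2 fold changes of the additive fit with SE, lowest for OsCPS2 at -8.31 (LOC_Os02g36264, with 0 reads under drought, is not drawn there).

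The members' profiles differed from each other. Each gene's log2 profile over the 6 libraries was centred on its own mean and set against the mean profile of the 9. The distance was smallest for CYP71Z7 (1.19) and largest for OsCPS2 (4.47), and 12217 of the tested genes were nearer than OsCPS2. Profiles were not scaled to equal size, so the distance counts the size of changes as well as their pattern. OsCPS2 had the lowest drought log2 fold change of the members (-8.31). Under normal growth its order of genotypes was that of the mean profile, with the mutant highest and the overexpressor lowest. CYP71Z6 (3.69) and CYP76M6 (3.64), the members not called under drought, were the next farthest. The 8 other genes nearest to the mean profile lay at distances from 0.551 to 1.03. The nearest was LOC_Os04g09260, of an HXXXD-type acyl-transferase family, which had 2.93, 14.3 and 1.57 CPM in ZH11, mutant and overexpressor under normal growth and 0.171, 0.419 and 0.0984 CPM under drought. Next came LOC_Os06g20790, of a methyltransferase superfamily, with 2.78, 22.0 and 1.32 CPM under normal growth. A pair of P450 genes, LOC_Os07g33440 and LOC_Os09g10340, had 13.4 and 14.9 CPM in the mutant under normal growth, against 3.80 and 1.68 CPM in ZH11. The others were LOC_Os10g26110 (a pyridoxal phosphate-dependent transferase), LOC_Os02g43360 (a cytochrome b5), LOC_Os02g35490 (of the MLO family) and LOC_Os07g34070 (of a nodulin MtN21-like transporter family). Of these LOC_Os02g43360 had the highest level, with 23.1, 63.5 and 11.6 CPM in the same order under normal growth.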

How the data were processed

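The deposited tables give, per the file headers, a read number per gene and FPKM. The deposited read numbers, so named per the file headers, come in steps of 0.5; how the authors came to fractions of reads is not given, so the deposited values were handled like expected counts and rounded to whole counts here; the deposited FPKM values were used for levels between genes and as an alternative. The submitters' processing notes name edgeR 3.6.0, Trimmomatic 0.32 and TopHat2 2.0.8; the counting, strand setting, genome build and annotation are not given in the sources used here. The 56001 lines gave 55986 genes after 15 repeated names were summed. edgeR 4.0.16 in R 4.3.3 fitted additive terms for genotype and stress to all 6 libraries (TMM; filterByExpr by stress group; 21409 genes; 2 residual degrees of freedom), with SE taken as the log2 fold change over the root of the F statistic; DESeq2 1.42.0 was the other model. The fit was also run on simulated counts with 1 shared dispersion, no genotype effect and few changed genes. Those settings differ from these data, so that run does not check the calls made here. A change was called at an adjusted p under 0.05, 2-sided. Single-library ratios are of TMM-scaled CPM, with exact 95% intervals, a pseudocount of 0.5 for 2-fold counts and lists, a minimum of 10 reads in either library, and a floor of 3 reads. With 1 library per group, p-values measure the spread left over the additive model, not that between plants.

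The members and lists were chosen with earlier results of these data known. Named were all members, list genes, the 8 genes nearest to the mean profile (Euclidean distance of centred log2 CPM plus 0.5), and neighbouring loci past the threshold with a mean of at least 10 CPM. Locus names other than the tables' descriptions come from the rice literature. The OsbZIP23 peak lists were not used here, since no source given placed the members in their build. Alternatives were other scalings, no filter, DESeq2, rounding down, other pseudocounts, FPKM, and leaving out each library.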

Additional observations from a re-analysis of the deposited data

Results flagged for a closer look

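CYP71Z6 (LOC_Os02g36150) was the one member whose drought ratio went opposite ways in different genotypes beyond counting error with TMM factors: 1.29 in the mutant (interval 1.11 to 1.5) and 0.608 in the overexpressor (0.454 to 0.809), with 295 against 470.5 reads and 75 against 147 reads. The opposite directions depend on the scaling. With RLE factors the ratios were 1.45 and 0.603, but scaled by total reads they were 0.809 (0.697 to 0.937) and 0.549 (0.410 to 0.730), lower in both genotypes. Each ratio rests on 1 library against 1, and the difference between genotypes was not tested.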

How the results depend on the processing

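The count of members lower under drought was 7 with TMM factors and under RLE scaling, total count scaling, no filter, DESeq2 and rounding down, and ran from 6 to 8 when single libraries were left out. The count of members changed in the mutant was 0 as first fitted, 6 with no low-count filter, 4 in DESeq2 and 0 to 6 with single libraries left out. That in the overexpressor was 0 throughout. No filter gave 4 other labdane genes lower, 1 regulator higher and 10 neighbouring loci lower, and DESeq2 gave 1 regulator higher. With single libraries left out, other labdane genes lower ran from 1 to 2, gibberellin genes lower from 1 to 3, regulators higher from 0 to 2, neighbouring loci lower from 2 to 8 and higher from 2 to 5. With a pseudocount of 2 the median drought ratio of the members was -1.55 in ZH11 and -1.08 in the overexpressor, on the log2 scale. Over all genes the mutant calls were 3 higher and 0 lower in edgeR, 77 and 7 in DESeq2, 160 and 24 with no filter, and 0 to 153 and 0 to 32 with single libraries left out, with 1 higher under RLE scaling and 9 under total count scaling. The overexpressor calls were 4 and 0, 44 and 22, 103 and 55, and 0 to 270 and 0 to 152, with 12 higher under total count scaling. Drought calls were 5579 higher and 5896 lower, 4024 and 7328 under total count scaling, and 2648 to 6595 and 2250 to 7192 with single libraries left out. Of the fitted log2 fold changes, these changed sign; none passed the threshold as first fitted or at the changed sign. The drought value of CYP71Z6 was 0.0191 under RLE scaling and 0.0147 in DESeq2, and -0.31 to 0.28 with single libraries left out. Over the same omissions, drought values ran from -1.03 to 0.14 for CYP76M6, -0.0227 to 1.13 for OsTGAP1 and -1.26 to 0.44 for OsPR1a. Mutant values ran from -0.57 to 2.81 for OsCPS2 and -3.65 to 3.54 for LOC_Os02g36220. Overexpressor values ran from -4.18 to 0.0281 for CYP76M7, -1.34 to 2.84 for OsKSL7 (0.0434 in DESeq2), -0.73 to 2.92 for OsCPS2, -0.37 to 4.63 for LOC_Os02g36220 and -0.34 to 0.0441 for LOC_Os02g36264. The cause of these shifts was not tested. No paired analysis was possible because each group had 1 library and so no replicate number to block on; the additive fit already compares drought within genotype. The peak alternatives were not run. At 0 to 8 reads a library, drought levels of OsCPS2, OsKSL7, CYP76M7, LOC_Os02g36220 and LOC_Os02g36264 cannot be ordered between genotypes.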
